A study of Mus musculus with 4 samples.

Results

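Keratins are the intermediate filament proteins of epithelial cells, and the cornified envelope is the cross-linked protein shell of dead surface cells in skin. The genes described here are those whose symbol in the deposited gene lists is Krt with a number, begins with Krtap, Sprr or Lce and a digit, or is Ivl, Lor, Flg or Flg2. They were chosen by symbol, with earlier results of these data known, so their listing is given as a description with no test. The annotation holds 149 such genes, and 62 of them were among the 29652 genes in any complete list.

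The data came from single-cell RNA sequencing of fetal pancreas cells, labelled for the epithelial surface protein EpCAM and sorted by flow cytometry, from mice on a C57BL/6 background. The groups were E15.5 KO and E13.5 KO, labelled PdxcreSetd2 f/f, and E15.5 WT and E13.5 WT, labelled Setd2 f/f, with 1 library each. All 4 groups therefore carry the Setd2 f/f alleles, and the KO embryos also carry a Cre recombinase driven by Pdx, a gene active in the pancreatic epithelium and the neighbouring foregut, so other cells in a sort may keep Setd2. Setd2 encodes the enzyme that adds the third methyl group to lysine 36 of histone H3. The number of embryos pooled in a library is not given in the sources used here.

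Each deposited file is a list of genes with no values, so a gene is either listed or not listed and no level, error or detection limit can be given. The depth of each library is unknown, and a gene that is not listed may have been missed. There are 25474 genes listed in E15.5 KO, 26341 in E13.5 KO and 25463 in E13.5 WT. The E15.5 WT list breaks off after 167 complete lines, and 0 of the 149 genes have an identifier within that stretch, so this library says nothing about them. With 1 library a group there is no replicate check, and the differences between lists cannot be told apart from differences between libraries. Epcam and Cdh1, which define epithelial cells, and the pancreatic genes Pdx1, Ptf1a, Sox9, Ins1 and Gcg were in all 3 complete lists. The mesenchymal genes Col1a1 and Pdgfra and the mesothelial genes Wt1 and Upk3b were in all 3 as well.

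Keratin filaments are built from pairs of a smaller acidic type I protein and a larger basic type II protein. Single-layered epithelia such as the pancreatic ducts and acini use Krt8 with Krt18, and ducts add Krt7 and Krt19. Stratified epithelia replace these with Krt5 and Krt14 in the basal layer, and with Krt1 and Krt10 in the epidermis or Krt4 and Krt13 in the oesophagus and mouth above it. Hair and nail have their own keratins, bound together by the Krtap proteins. Loricrin (Lor), involucrin (Ivl), filaggrin (Flg) and the Sprr and Lce proteins are made late in epidermal differentiation.

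The keratins of simple epithelia were complete. All 6 annotated genes of this class, Krt7, Krt8, Krt18, Krt19, Krt20 and Krt23, were listed in E15.5 KO, in E13.5 KO and in E13.5 WT. Krt8 (ENSMUSG00000049382, chromosome 15, 101996698 to 102004482, mm10) and Krt18 (ENSMUSG00000023043, chromosome 15, 102028180 to 102032027) form the core pair of simple epithelia and are neighbours among the keratin genes. Krt19 (ENSMUSG00000020911, chromosome 11, 100140810 to 100148665) is the ductal type I keratin, and Krt20 is best known from the intestinal epithelium and the urothelium. No gene of this class was in 1 list only, by genotype at E13.5 or by age in KO. Few protein-coding genes were: 6.08% of those in either E13.5 list and 7.57% of those in either KO list. Of all annotated protein-coding genes, 72.8% were in all 3 complete lists, so a class of 6 genes says little here. Some of Krt8 is also found elsewhere in the transcriptome, since 26.9% of the 50-base stretches of its transcripts occur in another gene, most often in the pseudogene Krt8-ps, which was in all 3 lists too.

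**Figure D1:**
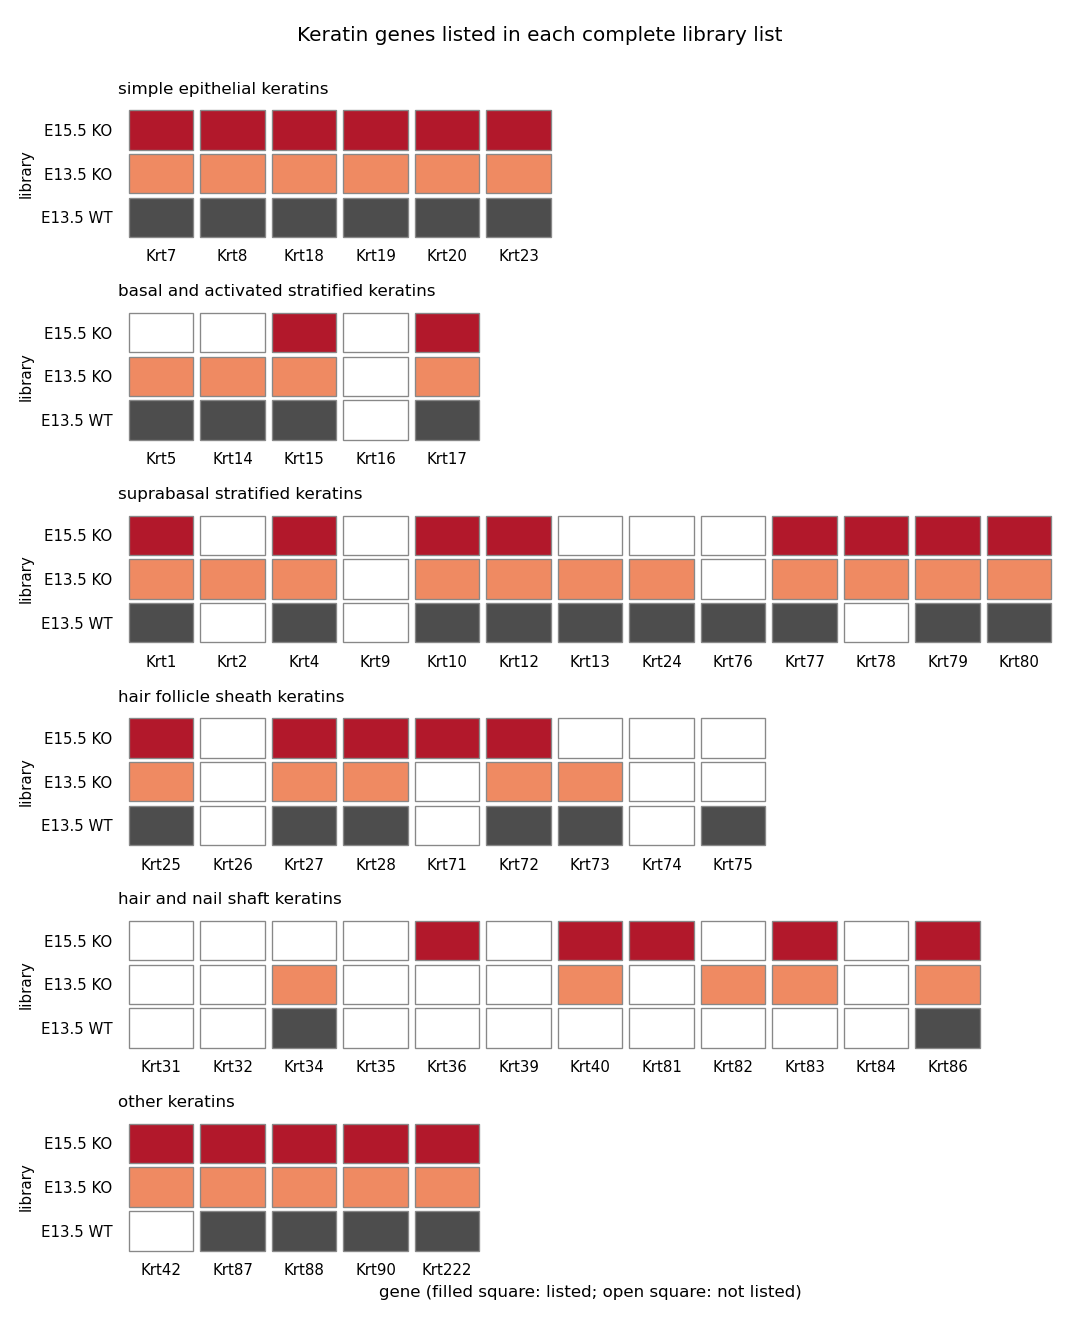
Each column is 1 annotated keratin gene, grouped by class, and each row is 1 library; a filled square is a listed gene and an open square a gene that is not listed. The 6 simple epithelial keratins are filled in every row, while Krt5, Krt13, Krt14, Krt24, Krt34 and Krt73 are filled in both E13.5 rows and open in E15.5 KO.

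Among the basal keratins of stratified epithelia, both members of the main filament pair were absent from the E15.5 KO list. Krt5 (ENSMUSG00000061527, chromosome 15, 101707070 to 101712898) and Krt14 (ENSMUSG00000045545, chromosome 11, 100203162 to 100207548), the pair that builds the filaments of basal cells, were not listed in E15.5 KO and were listed in both E13.5 KO and E13.5 WT. Krt15, another basal keratin, and Krt17, which marks skin appendages and wounded epidermis, were in all 3 lists. Krt16, made in activated epidermis, was in none. Over all protein-coding genes in either KO list, 7.57% were in 1 of them only, and E15.5 is read here from 1 library. Krt5 and Krt14 have near relatives: 8.52% of the 50-base stretches of Krt5 occur in other genes, most often in Krt6a, and 13.9% of those of Krt14, most often in Krt16. Neither Krt6a nor Krt16 was in any complete list.

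Among the suprabasal keratins, 8 of 13 annotated genes (61.5%) were listed in E15.5 KO, 11 (84.6%) in E13.5 KO and 10 (76.9%) in E13.5 WT, beside 75.9%, 77.9% and 77.7% of all annotated protein-coding genes in those libraries. Krt1 and Krt10 of the epidermis, Krt4 of the oesophagus, Krt12 of the cornea, Krt77, Krt79 and Krt80 were in all 3. Krt13 (ENSMUSG00000044041, chromosome 11, 100117327 to 100121566), the partner of Krt4, and Krt24 were absent from the E15.5 KO list and present in both E13.5 lists. Krt2 of the upper epidermis was in E13.5 KO alone, Krt76 of the palate in E13.5 WT alone, and Krt78 in both KO lists and not in E13.5 WT. Krt9, the keratin of footpad skin, was in none.

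The lists were also read by filament pair. Of 7 textbook pairs of a type II and a type I keratin, 4 were complete in E15.5 KO, 5 in E13.5 KO and 5 in E13.5 WT. Single protein-coding genes were listed at 75.9%, 77.9% and 77.7% in those libraries. No share of complete pairs was computed over other genes, so these counts are not read as a difference between libraries. Krt8 with Krt18, Krt7 with Krt19 and Krt1 with Krt10 were complete in every complete list. Krt5 with Krt14 was complete at E13.5 in KO and WT, and both partners were missing in E15.5 KO. Of Krt4 and Krt13, the E15.5 KO list held Krt4 without its partner. Krt71 and Krt25, partners in the inner root sheath of the hair follicle, were complete in E15.5 KO, while both E13.5 lists held Krt25 without Krt71. Krt6a and Krt16 were in none.

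The keratins of the hair follicle were listed in part. Of 9 annotated keratins of the follicle sheaths, 5 were in E15.5 KO, 5 in E13.5 KO and 6 in E13.5 WT. As shares these are 55.6%, 55.6% and 66.7%, beside 75.9%, 77.9% and 77.7% of all annotated protein-coding genes. Krt25, Krt27, Krt28 and Krt72 of the inner root sheath were in all 3 lists, Krt71 was in E15.5 KO alone, and Krt73 was in both E13.5 lists. Krt75 of the companion layer was in E13.5 WT alone. Krt25 and Krt27 share 10.9% and 11.1% of their 50-base stretches with other genes, each mostly with the other, so a listing of 1 of them is less certain than one of Krt72, at 0.154%. Krt26 and Krt74 were in none, and the annotation types mouse Krt74 as a pseudogene.

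Of 12 annotated keratins of the hair and nail shaft, 5 were in E15.5 KO, 5 in E13.5 KO and 2 in E13.5 WT. These shares are 41.7%, 41.7% and 16.7%, beside 75.9%, 77.9% and 77.7% of all annotated protein-coding genes. Of these 12, Krt86 was the 1 in all 3 lists, and 43.3% of its 50-base stretches occur in other genes, most often in Krt81. The shaft keratins Krt33a and Krt33b carry a letter, fall outside the symbol rule and are not among the 12. Krt33b was in all 3 lists too. Krt40 and Krt83 were in both KO lists and not in E13.5 WT. Krt36 and Krt81 were in E15.5 KO alone, Krt82 in E13.5 KO alone, and Krt34 in both E13.5 lists. Of these, Krt40 and Krt82 share 0% of their stretches with other genes, whereas Krt34 shares 33.1%, Krt81 37.7% and Krt83 22.1%. Krt31, Krt32, Krt35, Krt39 and Krt84 were in none. Among the 5 remaining keratins Krt87, Krt88, Krt90 and Krt222 were in all 3 lists. Krt42, a type I keratin known from the mouse nail, was in both KO lists and not in E13.5 WT. For Krt87, 36.9% of the 50-base stretches occur in other genes, most often in Gm49425.

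**Figure D2:**
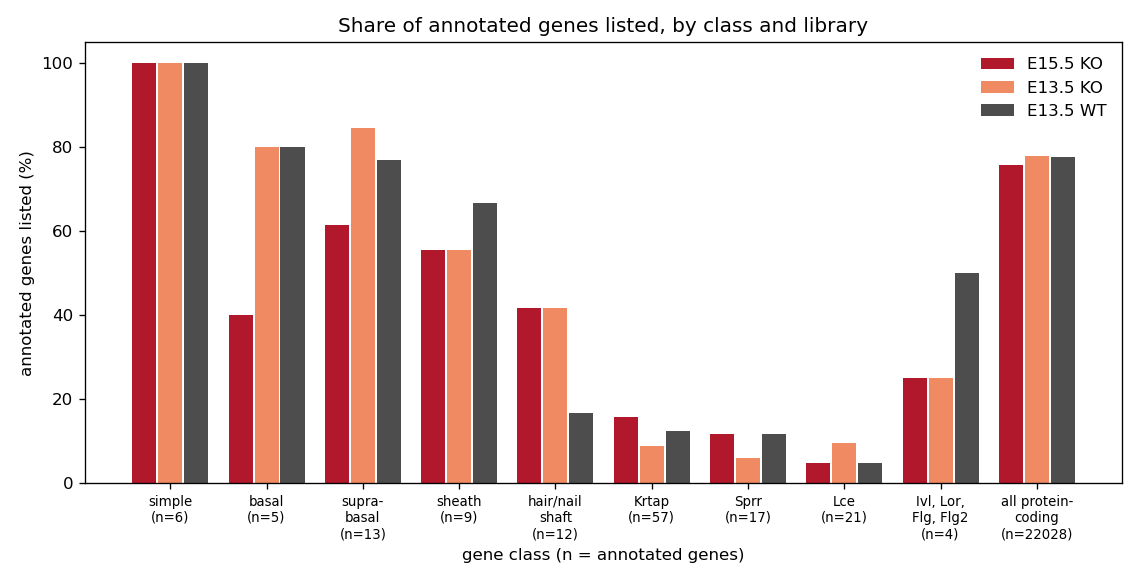
Bars give the percent of annotated genes that were listed, for 9 classes and for all protein-coding genes, with 1 bar for each of the E15.5 KO, E13.5 KO and E13.5 WT libraries and n the number of annotated genes. Simple keratins stand at 100%, and the Krtap, Sprr and Lce classes lie between 4.76% and 15.8%.

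The cornified envelope and hair matrix genes were mostly not listed. Of the 99 Krtap, Sprr, Lce, Ivl, Lor, Flg and Flg2 genes in the annotation, 13 were in E15.5 KO, 9 in E13.5 KO and 12 in E13.5 WT, and 78 were in none. The share listed in at least 1 complete list was 21.2%, beside 82.0% of the 50 keratins and 81.5% of all 22028 annotated protein-coding genes. In all 3 lists were 5.05% of these genes, 48.0% of keratins and 72.8% of protein-coding genes. Per list, keratins stood at 62.0% in E15.5 KO, 72.0% in E13.5 KO and 64.0% in E13.5 WT, and protein-coding genes at 75.9%, 77.9% and 77.7% in the same libraries. The Krtap, Sprr and Lce genes are short, with a median longest transcript of 856, 681 and 703 nt in turn, against 1956 nt for keratins. Flg and Flg2, at 14497 and 20803 nt, were in none. The part of transcript length in the shares listed was not tested.

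Loricrin, the main protein of the cornified envelope in the epidermis (Lor, ENSMUSG00000043165, chromosome 3, 92080271 to 92083142), was in all 3 lists. Involucrin, an early scaffold of the envelope (Ivl, ENSMUSG00000049128, chromosome 3, 92570902 to 92573735), was in E13.5 WT alone. Flg and Flg2, which encode the filament-aggregating proteins of the granular layer, were in none. Of 21 Lce genes, Lce6a was in all 3 lists, Lce1b was in E13.5 KO alone and the other 19 were in none. Of 17 Sprr genes, 2 were in E15.5 KO, 1 in E13.5 KO and 2 in E13.5 WT, and 0 were in all 3. Sprr1a was in E15.5 KO and E13.5 WT, Sprr2f in E15.5 KO alone, Sprr2i in E13.5 KO alone and Sprr2a3 in E13.5 WT alone. For Sprr2a3, 61.1% of the 50-base stretches occur in other genes, most often in Sprr2a2, so its listing is uncertain. Lce1b shares 24.4%, most often with Lce1j, and Sprr2i 12.5%, most often with Sprr2e, so their listing is also less certain. Sprr2f shares 0.714%, and Lor, Lce6a and Sprr1a share 0%.

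Of 57 Krtap genes, which encode the matrix proteins between hair keratin filaments, 9 were in E15.5 KO, 5 in E13.5 KO and 7 in E13.5 WT. These shares are 15.8%, 8.77% and 12.3%, beside 75.9%, 77.9% and 77.7% of all annotated protein-coding genes. Krtap4-16, Krtap16-1 and Krtap17-1 were in all 3 lists and share 0% of their 50-base stretches with other genes. Krtap1-3, Krtap3-2, Krtap3-3, Krtap4-2 and Krtap31-1 were in E15.5 KO alone. Krtap31-2 was in E15.5 KO and E13.5 WT, and Krtap10-10 in both E13.5 lists. Krtap4-7 and Krtap5-4 were in E13.5 WT alone and Krtap19-3 in E13.5 KO alone. Several of these have near-identical copies: the shared part is 41.3% for Krtap3-3 and 28.9% for Krtap3-2, each mostly with the other, and 39.5% for Krtap31-1 and 41.5% for Krtap31-2, again each mostly with the other. Krtap10-10 overlaps the exons of Gm2696 on the same strand and shares 44.1%.

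The genes lie in clusters, and the share listed differed between them. Of all annotated protein-coding genes, 81.5% were in at least 1 complete list and 72.8% in all 3. In the type II keratin cluster on chromosome 15 (101347444 to 102032027), which also holds the type I gene Krt18, 23 of 25 annotated keratins were in at least 1 complete list and 13 in all 3. In the type I cluster on chromosome 11 (99232761 to 100269871) 18 of 25 keratins were in at least 1 and 11 in all 3. The longest run of neighbouring keratins in all 3 lists was 6 genes, Krt27, Krt28, Krt10, Krt12, Krt20 and Krt23, on chromosome 11, which mixes sheath, epidermal, corneal and simple keratins. The Krtap genes inserted in this cluster on chromosome 11 were in at least 1 list in 10 of 23 cases, against 1 of 24 for the Krtap genes on chromosome 16. The 6 Krtap genes in E15.5 KO and not in E13.5 KO are all in the chromosome 11 group. So are all 9 Krtap genes in E15.5 KO, and 10 of the 13 Krtap genes in any complete list. Of this group, 3 were in E13.5 KO and 5 in E13.5 WT. Over protein-coding genes in either KO list, 2.55% were in E15.5 KO only. In the cornified envelope cluster on chromosome 3 (92080271 to 93293686) 8 of 42 genes were in at least 1 list, and the stretch from Lce1a2 to Flg holds a run of 20 neighbours in none.

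**Figure D3:**
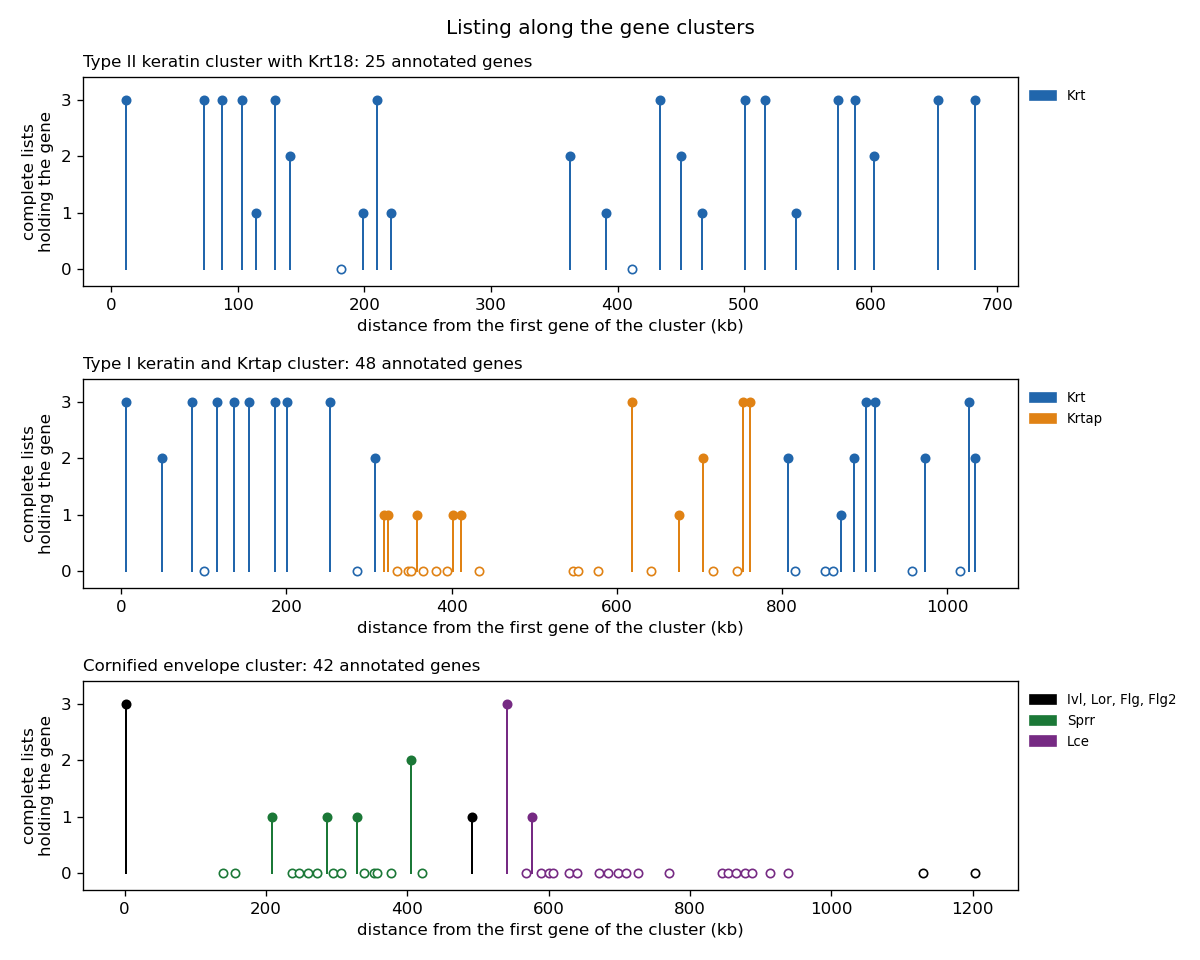
Each stem is 1 annotated gene at its distance in kb from the first gene of its cluster, and its height is the number of complete lists that hold it (0 to 3; open circles are at 0). Stems reach 3 for 13 of 25 keratins in the upper panel and for 11 of 25 in the middle one, while 34 of 42 genes in the lower panel are open circles.

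The promoters of 6 members are shown as examples of the sequences searched. Krt7 and Krt18 stand for the simple keratins in all 3 lists, Krt5 and Krt73 for genes in both E13.5 lists and not in E15.5 KO, Lor for an envelope gene in all 3, and Ivl for one in E13.5 WT alone. Each line gives the 150 bases before the RefSeq start site on GRCm38.p6, 5′ to 3′ on the gene's strand, with capitals for matches on either strand to the TATA box letters TATAAA, to the GC box letters GGGCGG and to CCAAT.
Krt7: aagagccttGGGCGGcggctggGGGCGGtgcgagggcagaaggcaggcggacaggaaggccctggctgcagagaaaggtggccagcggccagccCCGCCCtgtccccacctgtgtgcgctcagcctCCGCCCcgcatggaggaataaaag
Krt18: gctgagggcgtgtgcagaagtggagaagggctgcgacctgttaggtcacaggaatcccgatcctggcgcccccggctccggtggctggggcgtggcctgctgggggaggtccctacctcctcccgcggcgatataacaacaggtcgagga
Krt5: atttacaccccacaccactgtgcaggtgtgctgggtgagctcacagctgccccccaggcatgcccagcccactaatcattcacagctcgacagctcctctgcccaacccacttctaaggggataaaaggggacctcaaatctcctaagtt
Krt73: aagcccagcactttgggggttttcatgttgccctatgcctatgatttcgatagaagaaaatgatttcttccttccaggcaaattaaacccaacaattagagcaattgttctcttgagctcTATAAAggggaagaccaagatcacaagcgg
Lor: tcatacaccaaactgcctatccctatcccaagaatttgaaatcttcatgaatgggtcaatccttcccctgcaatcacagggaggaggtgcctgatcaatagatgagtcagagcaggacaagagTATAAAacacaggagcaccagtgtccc
Ivl: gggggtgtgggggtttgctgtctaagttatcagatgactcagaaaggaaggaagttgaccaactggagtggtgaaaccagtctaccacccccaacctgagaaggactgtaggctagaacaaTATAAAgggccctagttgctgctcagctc

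These windows are chr15:101412253-101412402, plus strand (Krt7), chr15:102028066-102028215, plus strand (Krt18), chr15:101712906-101713055, minus strand (Krt5), chr15:101802361-101802510, minus strand (Krt73), chr3:92083143-92083292, minus strand (Lor) and chr3:92573736-92573885, minus strand (Ivl). Krt7 holds 4 matches to GGGCGG and is 70.0% G and C. Krt18 and Krt5 hold none of the 3 motifs and are 66.7% and 55.3% G and C. TATAAA begins at position -30 from the start in Krt73, at -27 in Lor and at -29 in Ivl. None of the matches overlap.

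The same letters were searched in the 250 bases before the start for 124 promoters of 123 members that the RefSeq table holds. TATAAA, on either strand, was in 59.7% of the members' promoters, beside 12.4% of all 32851 promoters in the table. GGGCGG was in 2.42%, beside 32.7% of all. CCAAT was in 31.5%, beside 33.9% of all. For the 36 keratin promoters alone the shares were 44.4% for TATAAA, 5.56% for GGGCGG and 38.9% for CCAAT. The share with TATAAA was 63.2% for the 19 promoters of members in all 3 lists and 64.0% for the 75 of members in none. Many members are copies of each other, so these promoters are not independent, and a match is no evidence of a binding site.

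At E13.5 the KO and WT lists can be set side by side for a difference by genotype. Of 53 members in either list, 36 were in both, 9 in E13.5 KO only and 8 in E13.5 WT only. The share in 1 list only was 32.1%, beside a background of 16.3% of all genes and 6.08% of protein-coding genes. Without Krtap genes 8 were in E13.5 KO only and 5 in E13.5 WT only, and among members with no exon overlap and no shared stretch 4 and 1. By direction the background was 9.72% in E13.5 KO only and 6.61% in E13.5 WT only over all genes, and 3.17% and 2.91% over protein-coding genes. Among keratins 6 genes (Krt2, Krt40, Krt42, Krt78, Krt82 and Krt83) were in E13.5 KO only and 2 (Krt75 and Krt76) in E13.5 WT only, so 8 of 38 differed. Among the other families 3 (Krtap19-3, Lce1b and Sprr2i) were in E13.5 KO only and 6 (Ivl, Krtap4-7, Krtap5-4, Krtap31-2, Sprr1a and Sprr2a3) in E13.5 WT only. The counts by class were 0 of 6 for simple keratins, 3 of 16 for stratified keratins and 4 of 11 for sheath and shaft keratins.

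Of the 9 genes in E13.5 KO only, Krt40, Krt42, Krt78 and Krt83 were also in E15.5 KO, and 5 were not. Of the 8 genes in E13.5 WT only, Sprr1a and Krtap31-2 were also in E15.5 KO, and 6 were not. All of these patterns depend on 1 WT library.

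In the mutant, the lists of the later and the earlier age can be set side by side. Of 56 members in either list, 33 were in both, 11 in E15.5 KO only and 12 in E13.5 KO only. The share in 1 list only was 41.1%, beside 17.8% of all genes and 7.57% of protein-coding genes. Without Krtap genes the split was 5 in E15.5 KO only and 10 in E13.5 KO only, a share of 33.3%. Among members with no exon overlap and no shared 50-base stretch it was 1 and 4, a share of 25.0%. By direction the background was 7.37% in E15.5 KO only and 10.4% in E13.5 KO only over all genes, and 2.55% and 5.03% over protein-coding genes. Among the stratified keratins 0 were in E15.5 KO only, and 5 (Krt2, Krt5, Krt13, Krt14 and Krt24) were in E13.5 KO only, of 15 in either. Of the sheath and shaft keratins, Krt36, Krt71 and Krt81 were in E15.5 KO only and Krt34, Krt73 and Krt82 in E13.5 KO only. Of the other families, 8 were in E15.5 KO only, 6 of them Krtap genes with Sprr1a and Sprr2f, and 4 in E13.5 KO only, Krtap10-10, Krtap19-3, Lce1b and Sprr2i. Over all protein-coding genes, 16717 were in E15.5 KO and 17154 in E13.5 KO. Age and library cannot be told apart here.

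**Figure D4:**
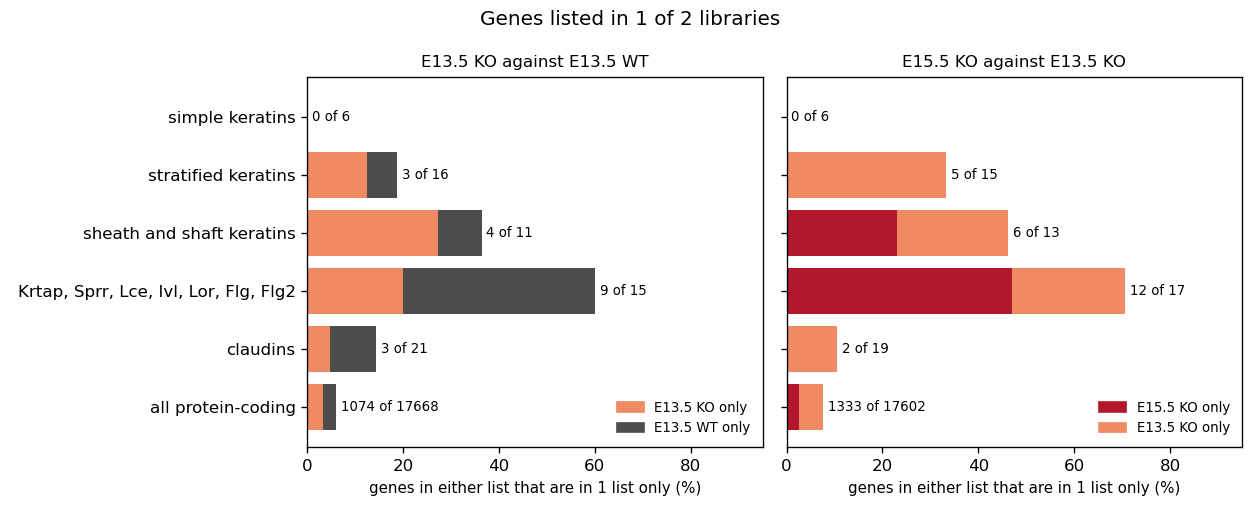
Bars give the percent of genes in either of 2 lists that were in 1 list only, split by which list held them, for E13.5 KO against E13.5 WT on the left and E15.5 KO against E13.5 KO on the right. Simple keratins stand at 0 of 6 in both panels, and the Krtap, Sprr, Lce, Ivl, Lor, Flg and Flg2 genes at 9 of 15 and 12 of 17.

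Short genes were in 1 list only more often than long ones. Among protein-coding genes whose longest transcript is under 1000 nt, 17.6% of those in either E13.5 list were in 1 only, against 5.27% of the longer ones. Between the KO lists the values were 20.8% and 6.65%. Members under 1000 nt were in 1 list only in 6 of 10 cases at E13.5 and in 10 of 14 between the KO lists, and the longer members in 11 of 43 and in 13 of 42. Expression could not be matched, since the lists give no levels, and the part of low expression in these shares was not tested. Claudins, another family of epithelial genes, differed in 3 of 21 at E13.5 and in 2 of 19 between the KO lists.

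Genes that work with keratins were also read from a list of names. All 10 plakin and hemidesmosome genes were in all 3 complete lists, as were 72.8% of all annotated protein-coding genes. Among the 10 are plectin (Plec), which links keratins to the cell surface, and the envelope scaffolds Evpl and Ppl. Of 16 desmosome genes 11 were in E15.5 KO (68.8%), 11 in E13.5 KO (68.8%) and 12 in E13.5 WT (75.0%), where protein-coding genes stood at 75.9%, 77.9% and 77.7%, with desmoplakin (Dsp), plakoglobin (Jup), Dsg2 and Dsc2 of simple epithelia in all 3. Pkp1, a desmosome protein of stratified epithelia, was in both E13.5 lists and not in E15.5 KO, while Dsg3 of basal cells was in E15.5 KO and E13.5 WT. Dsc3, Dsg1c and Perp were among the 10 desmosome genes in all 3 lists. Dsg1a, Dsg1b, Dsg4 and Dsc1 were in none.

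Of 19 transcription factors of stratified and appendage epithelia, 15 were in E15.5 KO (78.9%), 17 in E13.5 KO (89.5%) and 18 in E13.5 WT (94.7%), beside the same 75.9%, 77.9% and 77.7% of protein-coding genes. Trp63, the factor that defines the basal cells of stratified epithelia, was in all 3 lists, and so were Klf4, Grhl3 and Ovol1. Gata3 and Msx2 were in both E13.5 lists and not in E15.5 KO, and Dlx3 was in E13.5 WT alone. Hoxc13, the factor of hair shaft keratins, was in none, while Foxn1 and Lef1 of the same list were in all 3. Of 19 enzymes and other proteins of cornification, 15 were in E15.5 KO (78.9%), 13 in E13.5 KO (68.4%) and 13 in E13.5 WT (68.4%). The transglutaminases Tgm1 and Tgm5, which cross-link envelope proteins, were in all 3, and so was Tgm2. Tgm3, another transglutaminase, was in E15.5 KO alone together with the kallikrein protease Klk5. In all 3 lists were 11 of these 19 genes, among them also Aloxe3, Asprv1, Sbsn, Dmkn and Klk8. Alox12b, a lipoxygenase of the skin barrier, was in E13.5 KO alone, and the kallikrein protease Klk7 in E13.5 WT alone. Lypd3 was in both KO lists, and Cdsn, which encodes corneodesmosin, in E15.5 KO and E13.5 WT. Casp14, the protease of cornifying cells, and Spink5, a protease inhibitor of the epidermis, were in none. All 16 other intermediate filament genes examined, such as Vim, Des, Nes and the lamins, were in all 3 lists. So were 72.8% of all annotated protein-coding genes.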

How the data were processed

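Single-cell RNA-seq libraries of EpCAM-labelled, sorted mouse fetal pancreas were made for 4 groups with 1 library each. The submitters' processing notes name Seurat and mm10. The aligner, the annotation release and what decided that a gene was listed are not given in these sources. The files deposited by the authors hold an Ensembl identifier and a symbol per line, with no other unit, so a gene is listed or not. Groups came from sample titles.

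Members were taken by the symbol in the lists, and the annotation (GENCODE M21, GRCm38) gave types, coordinates and the members in no list. Members and gene lists were chosen with earlier results of these data known. Genes named were every keratin, Ivl, Lor, Flg, Flg2, every listed Krtap, Sprr and Lce gene, and members of other lists that differed between complete lists or were in none, with some in all lists named as examples. Lists were compared as counts beside the same counts over all genes. Shared sequence is the percent of 50-base stretches of a gene's transcripts found in another gene's transcripts, on the same strand. Counting was tested on simulated lists. Python 3.11.15 and pandas 2.3.3 were used. Alternatives were matching by identifier, lettered keratins, no Krtap genes, protein-coding members, and members without shared sequence or exon overlap.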

Additional observations from a re-analysis of the deposited data

How the results depend on the processing

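Across 5 alternatives, 54 of 70 recomputed counts and shares stayed within 1.5 times of the values above and 16 did not. This tally is no measure of robustness. The protein-coding alternative could change nothing, and the last one below cut the listed members from 62 to 20, which lowers most counts. Matching by identifier added 1 gene, 4930553J12Rik, which the annotation calls Krtap15, in E13.5 KO alone. Counting lettered keratins gave 64 members. Every listed member is protein-coding, so counting protein-coding members gave the same 62. Without Krtap genes, 5 members were in E13.5 WT only at E13.5, and 15 differed between the KO lists, with 5 in E15.5 KO only. An alternative chosen after the data were seen kept the 20 listed members whose exons overlap no other gene and share no 50-base stretch. Of these, 16 were in E15.5 KO, 19 in E13.5 KO and 16 in E13.5 WT. At E13.5, 5 of them differed, 4 in E13.5 KO only and 1 in E13.5 WT only, with 15 in both. Between the KO lists 5 differed, 1 in E15.5 KO only and 4 in E13.5 KO only, with 15 in both, so the share in 1 list only was 25.0% in each comparison. Listed members fell from 62 to 20 in this alternative, and members in both E13.5 lists from 36 to 15. Between the KO lists, genes in E15.5 KO only fell from 11 to 1 and those in E13.5 KO only from 12 to 4. At E13.5, genes in WT only fell from 8 to 1 and those in KO only from 9 to 4. The share in 1 list only fell from 32.1% at E13.5 and from 41.1% between the KO lists. The part of shared sequence in these differences was not tested. The planned comparison of E15.5 KO with E15.5 WT was not run because the readable part of the E15.5 WT list covers none of the members. No paired analysis was possible because there is 1 library in every group. The unknown depth of each library limits every absence.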

Other observations

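Keratin-named genes outside the symbol rule gave further values. Krt33b, a hair shaft keratin, was in E15.5 KO, E13.5 KO and E13.5 WT, and Krt33a was in E13.5 KO alone. Krt6a and Krt6b, keratins of activated epidermis, were in none of these lists. Krtdap, a secreted protein of differentiating keratinocytes, was in all 3. Of 17 other genes of the epidermal differentiation complex, 8 were in E15.5 KO, 8 in E13.5 KO and 8 in E13.5 WT. This is 47.1% in each, beside 75.9%, 77.9% and 77.7% of all annotated protein-coding genes. S100a8, S100a9, S100a14 and S100a16, calcium-binding proteins that other tissues make too, were in all 3. So were S100a3, S100a7a and Tchh, the trichohyalin of the hair follicle. Rptn was in E15.5 KO alone and Crct1 in both E13.5 lists. Hrnr, Tchhl1, Crnn, Kprp, Smcp, Lelp1, Pglyrp3 and Pglyrp4 were in none.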
